A study of Caenorhabditis elegans with 2 samples.

Results

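Splicing factor and small nuclear ribonucleoprotein (snRNP) genes were examined for binding of FOS-1, a worm bZIP transcription factor related to mammalian Fos. The set held 40 of the 19985 protein-coding genes of Caenorhabditis elegans. The rule used symbols only (snr-, lsm-, rsp-, sftb-, uaf- or prp- followed by a number), and it was set with earlier results of these data known. Binding had been mapped by chromatin immunoprecipitation and sequencing (ChIP-seq) of eGFP-tagged FOS-1 in whole animals of mixed sex at the first larval stage (L1). The only group comprised 2 biological replicates of strain OP304, genotype unc-119(ed3) III; wgIs304, so both replicates carried the unc-119 mutation and the wgIs304 insertion that holds the tagged fos-1. Whole animals were used, so a peak cannot be placed in a tissue, and binding in few cells may be missed. No group of control samples was used here.

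Each list gives regions (entries) with a summit, the point of strongest enrichment, and a signal value whose scaling is not stated. The IDR list (for irreproducible discovery rate, a procedure that compares ranks between replicates) held 1895 peaks with a lowest signal of 42.5. Ranked by signal, the pooled list begins with these same 1895 peaks, so membership followed pooled signal. The pooled list held 20363 entries, and the replicate lists held 29801 and 23483. The lists hold no read counts, so depth is unknown and a gene without an entry is called not listed, never unbound. A gene was counted when a summit lay between 1000 bp upstream and 200 bp downstream of its annotated 5' end, its promoter window.

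The spliceosome removes introns from nuclear transcripts. Its snRNPs each hold a ring of Sm proteins, or of LSm proteins in the case of the U6 particle, around a short nuclear RNA. SR proteins bind exons and recruit these particles, U2AF and SF3B recognise the 3' splice site and the branch point, and the Prp proteins, first found in yeast, assemble and remodel the complex. Many worm transcripts also receive a spliced leader in trans, which replaces their original start, so an annotated 5' end can lie downstream of the true start of transcription.

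Of the 40 genes, 18 had an IDR summit in the promoter window (45.0%, 95% Clopper-Pearson interval 29.3 to 61.5), while 7.65% of all protein-coding genes had one. An entry of any strength in the pooled list was present at 35 genes (87.5%, interval 73.2 to 95.8), against 32.8% of all genes. Alternatively, a summit went only to the gene with the nearest 5' end within 2000 bp on either side, without the promoter window. By that assignment 9 of the 40 genes had an IDR summit (22.5%, all genes 6.95%), below the lower limit of 29.3. When each replicate was represented by its own 1895 entries of highest signal, replicate 1 gave 19 genes (47.5%; all genes 7.35%) and replicate 2 gave 16 (40%; all genes 7.37%). Both replicates listed 15 genes among those entries, and all 15 were among the 18 with an IDR summit. The IDR list was made from the replicate and pooled lists, so this is not independent support. Genes listed so by both replicates were not counted over all protein-coding genes. No test of the set against other genes was made. The intervals cover counting error over genes only, and neighbouring genes can share a peak.

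**Figure D1:**
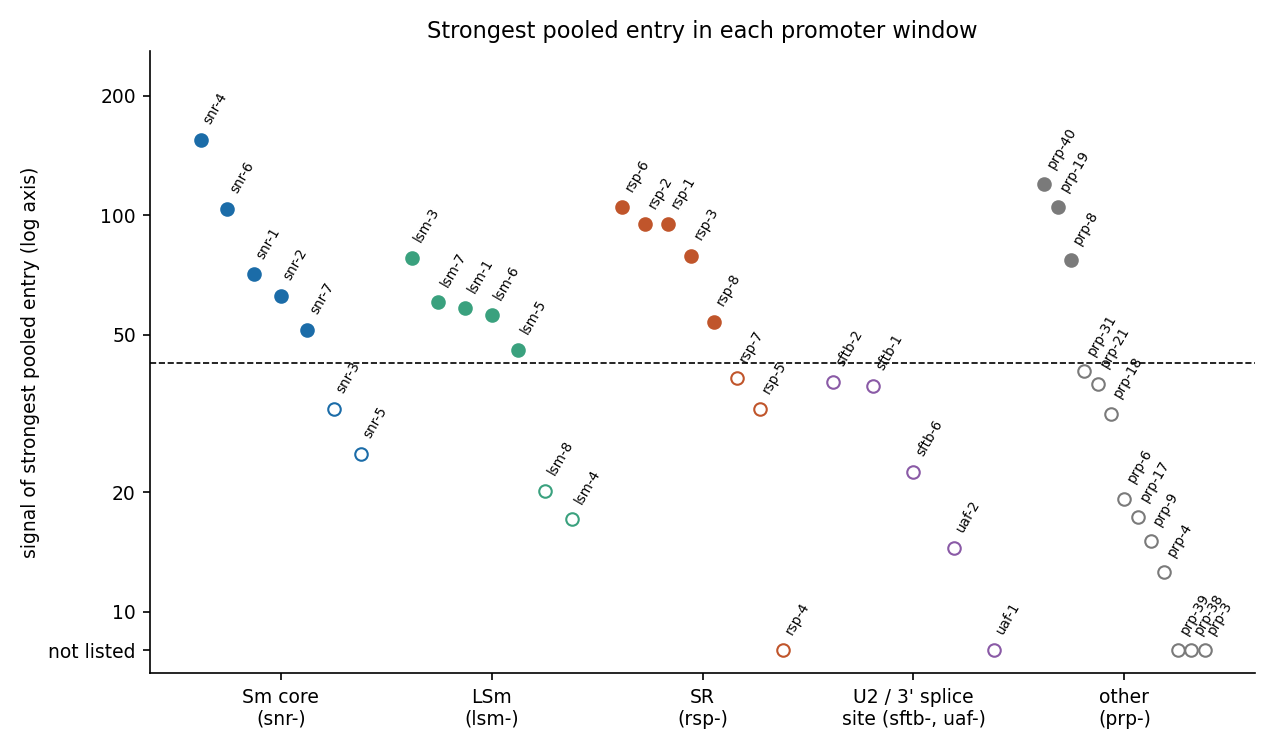
The vertical axis (log scale) gives the signal of the strongest pooled entry in the promoter window of each of the 40 genes, grouped by role along the horizontal axis. Filled circles are the 18 genes with an IDR summit, open circles those without, and the dashed line is the lowest IDR signal, 42.5. The 5 genes on the bottom row had no pooled entry in the window.

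The windows of the 18 genes held 18 distinct peaks, since rsp-1 and rsp-2 shared one and snr-4 had a pair. Their signals ran from 45.7 to 155 with a median of 77.5, where all IDR peaks had a median of 63.6. By rank in the pooled list, 11 of the 18 fell in the upper part of the IDR list when it was split at its middle, and 0 reached the first 100. Just inside the IDR list lay lsm-5 with 45.7, and just outside it prp-31 with 40.4 and rsp-7 with 38.9. The peaks of 7 of the 8 genes of highest signal are shown here as 151 bases centred on the summit (base 76), read 5' to 3' on the strand of the gene, so that the 5' end of the gene lies to the right. They are shown because they lie at the strongest summits, and none holds TGACTCA, the best known site of Fos proteins. Capitals mark a match to any motif searched, and sequences without capitals hold none. Sequence is from RefSeq, assembly WBcel235 (ce11).

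snr-4: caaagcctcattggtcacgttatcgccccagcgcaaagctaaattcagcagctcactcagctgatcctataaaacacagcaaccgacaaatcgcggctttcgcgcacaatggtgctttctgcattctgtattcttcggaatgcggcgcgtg
prp-40: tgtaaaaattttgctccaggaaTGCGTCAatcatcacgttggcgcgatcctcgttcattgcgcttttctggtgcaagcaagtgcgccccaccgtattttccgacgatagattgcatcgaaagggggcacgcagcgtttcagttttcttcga
prp-19: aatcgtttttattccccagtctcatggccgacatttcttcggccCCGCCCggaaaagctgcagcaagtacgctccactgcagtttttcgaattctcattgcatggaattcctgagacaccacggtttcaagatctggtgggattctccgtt
rsp-6: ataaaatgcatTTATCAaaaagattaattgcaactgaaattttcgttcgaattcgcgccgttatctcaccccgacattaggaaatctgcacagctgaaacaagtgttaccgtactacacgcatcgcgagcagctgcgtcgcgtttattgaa
rsp-1 and rsp-2 (strand of rsp-1): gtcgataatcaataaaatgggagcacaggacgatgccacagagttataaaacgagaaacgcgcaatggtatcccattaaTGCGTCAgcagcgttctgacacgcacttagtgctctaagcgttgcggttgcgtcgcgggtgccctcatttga
rsp-3: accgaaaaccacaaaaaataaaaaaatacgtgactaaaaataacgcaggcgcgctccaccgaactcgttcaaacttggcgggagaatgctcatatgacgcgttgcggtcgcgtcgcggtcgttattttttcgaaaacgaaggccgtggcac

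These windows are V:11980007-11980157 (minus strand) for snr-4, III:9521846-9521996 (plus) for prp-40, III:5172601-5172751 (minus) for prp-19, IV:7791355-7791505 (minus) for rsp-6, II:11453121-11453271 (plus) for rsp-1 and III:12688130-12688280 (minus) for rsp-3. The GC content of the printed windows ran from 41.7% in rsp-6 to 51% in snr-4. By the annotation used, all 6 summits were intergenic, which here means outside protein-coding genes.

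The Sm core genes encode the ring shared by most spliceosomal snRNPs, and 5 of 7 had an IDR summit. The highest of the whole set was at snr-4, which encodes SmD2 (V:11979989-11980111, summit 359 bp upstream). It had a signal of 155 in the pooled list, 87.0 in replicate 1 and 64.4 in replicate 2, and ranked 144, 196 and 118. A further peak of the same promoter, 562 bp upstream (V:11980115-11980454), had signals of 123, 86.2 and 31.1, with ranks of 244, 202 and 615. The replicates thus ranked the nearer peak alike, while the farther one ranked lower in replicate 2. The peak of snr-6, the gene of SmE (III:12429727-12430066, 268 bp upstream), had signals of 104, 62.0 and 36.5, and both replicate summits lay 1 bp from the pooled one.

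The other Sm genes had lower signals. At snr-1 (SmD3; IV:17087491-17087830, 388 bp upstream) the signal was 70.9 in the pooled list, 47.4 in replicate 1 and 24.3 in replicate 2. At snr-2 (SmB; I:13338908-13339247, 319 bp upstream) it was 62.7, 29.8 and 34.9, with a rank of 1667 in replicate 1 and 485 in replicate 2. At snr-7 (SmG; I:2726544-2726883, 300 bp upstream) it was 51.4, 32.3 and 15.4, and the rank of 2283 in replicate 2 put it outside the 1895 highest entries of that replicate. All 3 of these summits were nearer the 5' end of another gene: snx-13 for snr-1 (223 bp), W08E3.4 for snr-2 (147 bp) and Y71F9B.6 for snr-7 (10 bp, in its 5' UTR). The remaining Sm genes, snr-3 (SmD1) and snr-5 (SmF), had pooled entries of 32.5 and 25, below the IDR limit.

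Of the LSm genes, which encode the ring of the U6 snRNP and a related cytoplasmic ring that acts in mRNA decay, 5 of 7 had an IDR summit. Their signals were more alike than those of the Sm genes, from 45.7 to 78.1. The subunits shared by both rings were represented by lsm-3 (78.1), lsm-7 (60.3), lsm-6 (55.9) and lsm-5 (45.7), and the decay ring by lsm-1 (58.2). At lsm-6 (I:1701062-1701401, 129 bp upstream) the replicates ranked the peak at 1115 and 1156. At lsm-5 (V:15569747-15570086, 463 bp upstream) they differed, with a signal of 35.5 and rank 1206 in replicate 1 and 10.2 and rank 6168 in replicate 2. At lsm-1 the order was the opposite, with 24.1 and rank 2371 in replicate 1 and 35.6 and rank 460 in replicate 2. The lsm-5 and lsm-1 peaks are therefore each supported by the highest entries of 1 replicate alone.

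The lsm-1 peak (II:11126398-11126737, 382 bp upstream) lay nearer rps-9, a ribosomal protein gene (206 bp). The lsm-7 peak (IV:10933085-10933424, 247 bp upstream) lay 52 bp from dnc-1. The lsm-3 summit, 963 bp upstream, was close to the edge of the window and 84 bp from the 5' end of Y62E10A.23, and it fell in the windows of 4 genes (IV:13386070-13386409). The gene of the nuclear ring's own subunit, lsm-8, had only a pooled entry of 20.2 with a summit 5 bp inside the gene, and replicate 2 listed no summit in its window. At lsm-4 the pooled entry had a signal of 17.1 and rank 10192.

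Of the 8 SR genes, 5 had an IDR summit. The signal at rsp-6 (IV:7791260-7791599, 201 bp upstream) was 105 in the pooled list, 60.2 in replicate 1 and 46 in replicate 2, with ranks of 347, 428 and 251. The peak between the divergent genes rsp-1 and rsp-2 (II:11453026-11453365) lay 166 bp upstream of rsp-1 and 241 bp upstream of rsp-2, and it was in no other promoter window. It had signals of 94.8, 62.0 and 34.5. At rsp-3, whose product is the SF2/ASF (SRSF1) type of SR protein (III:12688035-12688374, 283 bp upstream), the signals were 79.1, 57.9 and 18.3. That peak ranked 457 in replicate 1 and 1658 in replicate 2 and was nearer spin-4 (113 bp). At rsp-8 (III:11825740-11826079, 508 bp upstream) the signals were 53.9, 30.7 and 25.6, with ranks of 1247, 1575 and 927.

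A further divergent pair in the set, snr-3 and rsp-5, shared a pooled entry of 32.5 (II:6489732-6490071, 141 bp upstream of snr-3 and 263 bp upstream of rsp-5), which ranked 3002 in replicate 1 and 6350 in replicate 2. Of the 2 promoters shared by members, 1 carried an IDR peak. The share of such promoters over all genes was not counted, and 2 are too few to compare with it. The entry of rsp-7, at 38.9, ranked 2889 and 2490. At rsp-4, which encodes the SC35 (SRSF2) type, no list had a summit in the window; the nearest pooled entry was 1295 bp upstream, an IDR peak of signal 92.0.

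None of the 5 sftb- and uaf- genes, grouped here by symbol as U2-associated and 3' splice site factors, had an IDR summit (0%, interval up to 52.2). Over all protein-coding genes the share was 7.65%. With a share that low, 5 genes cannot show whether this group has fewer. Such factors under other symbols are not in this group. All 4 with a pooled entry were below the limit: sftb-2 (38.0), sftb-1, the gene of the SF3B1 homologue (37.1), sftb-6 (22.5) and uaf-2, the gene of the small U2AF subunit (14.5). The replicates disagreed on the first, which ranked 1317 in replicate 1 and 14222 in replicate 2. At sftb-1 the ranks were 1884 and 3317, so both genes reached the 1895 highest entries in replicate 1 alone. The window of uaf-1, which encodes the large U2AF subunit, had no pooled entry, and replicate 1 had 1 of rank 16615.

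Among the 13 prp genes, which encode subunits of several particles, 3 had an IDR summit. At prp-40, named for a yeast U1 snRNP protein (III:9521751-9522090, 154 bp upstream), the signal was 120 in the pooled list, 74.5 in replicate 1 and 43.8 in replicate 2, with ranks of 255, 277 and 290. At prp-19, the gene of the ubiquitin ligase of the Prp19 complex (III:5172506-5172845), it was 105, 52.9 and 49.8, with ranks of 342, 570 and 213. That summit lay 631 bp upstream of prp-19 and 44 bp from K10D2.5, and the window of emb-1 held it as well. At prp-8, which encodes the central U5 protein of the catalytic core (III:8163915-8164254, 288 bp upstream), the signals were 77.0, 42.1 and 33.4. Its ranks were 650, 878 and 538, and the summits of both replicates coincided with the pooled one.

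The other 10 prp genes split into 7 with weaker pooled entries and 3 without. The tri-snRNP gene prp-31 (40.4), prp-21 (37.6) and the second-step factor gene prp-18 (31.6) were the highest, and replicate 2 had no entry in the window of prp-18. Those of prp-6, prp-17, prp-9 and prp-4 ran from 19.3 down to 12.6. No pooled summit lay in the windows of prp-3, prp-38 and prp-39. The nearest pooled entries to prp-38 and prp-39 were IDR peaks 2087 and 2096 bp upstream; the former, of rank 575, was the peak of the promoter window of plrg-1, another spliceosome gene.

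**Figure D2:**
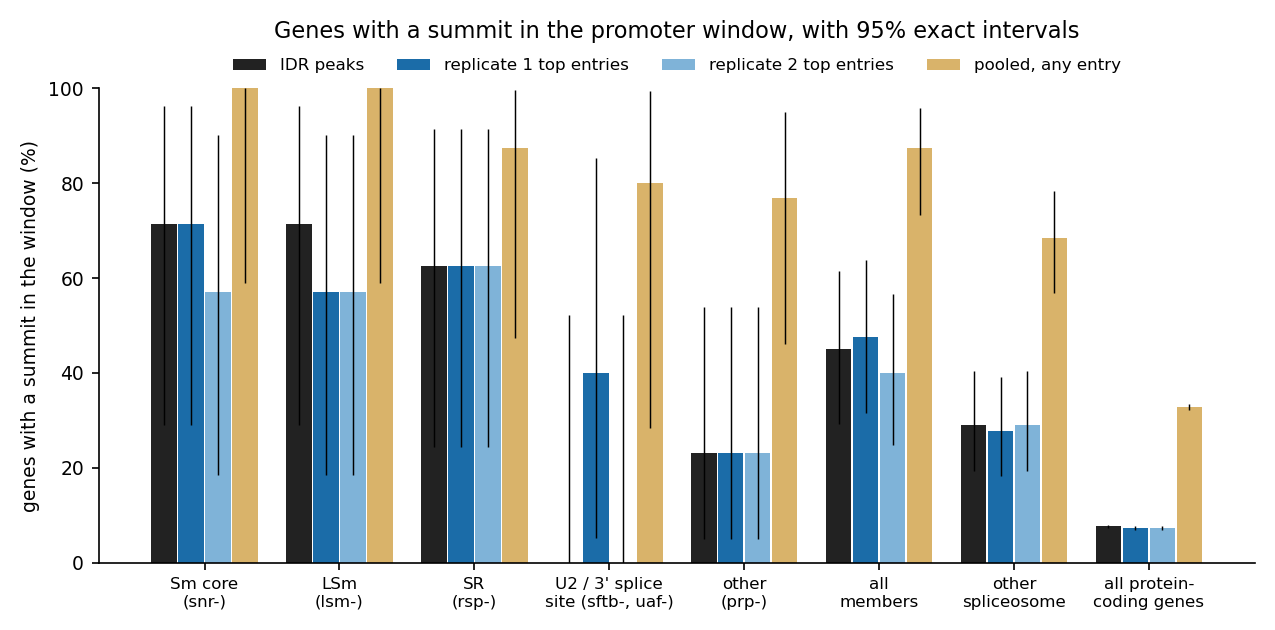
Bars give the percentage of genes in each group with a summit in the promoter window, for IDR peaks, for the 1895 highest entries of each replicate and for any pooled entry, with 95% Clopper-Pearson intervals over genes as lines. The Sm, LSm and SR groups stand at 62.5% to 71.4% for IDR peaks, the prp group at 23.1% and the U2 group at 0%, with wide intervals for groups of 5 to 13 genes. All protein-coding genes stand at 7.65% for IDR peaks.

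By role, the share with an IDR summit was 71.4% for Sm genes (interval 29.0 to 96.3), 71.4% for LSm genes and 62.5% for SR genes (24.5 to 91.5). It was 23.1% for prp genes (5.04 to 53.8), while all protein-coding genes stood at 7.65%. With summits given only to the nearest gene, 2 of 7 Sm genes (28.6%), 2 of 7 LSm genes (28.6%), 3 of 8 SR genes (37.5%) and 2 of 13 prp genes (15.4%) kept one. The intervals overlapped, and whether the groups differ was not tested. In replicate 1 alone the shares were 71.4%, 57.1%, 62.5% and 23.1% in the same order, and in replicate 2 they were 57.1%, 57.1%, 62.5% and 23.1%. The group with the least alike values was that of U2 and 3' splice site factors, with 40% in replicate 1 and 0% in replicate 2. Its share with an IDR summit was 0% of 5 genes.

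An overlapping entry was present in each replicate for all 18 peaks. The IDR list was made from the replicate and pooled lists, so this overlap is not independent support. The replicate summits lay 0 to 55 bp apart, with a median of 16.5 bp. Across the 30 genes with an entry in the window in both replicates, Spearman's rho of the best ranks was 0.783. This is a description, since the replicates share a control file and some of the genes share a peak.

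**Figure D3:**
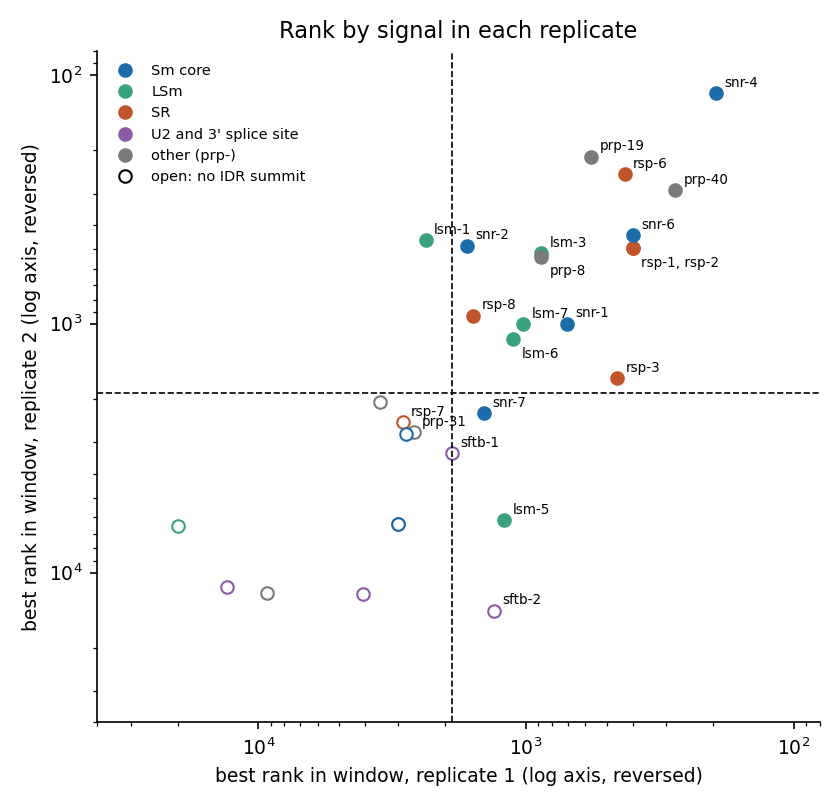
Each circle is a gene with an entry in its promoter window in both replicates (30 genes), placed by its best rank in replicate 1 and in replicate 2, with high ranks to the upper right on reversed log axes. Dashed lines mark rank 1895. Of the filled circles (genes with an IDR summit), snr-7 and lsm-5 lie below the line of replicate 2 and lsm-1 left of the line of replicate 1, and the remaining 15 are past both.

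The best summit of each of the 18 genes lay upstream of the 5' end, at 129 to 963 bp with a median of 294 bp. For 15 of them (83.3%) it was 100 to 500 bp upstream, which was so for 62.9% of all genes with an IDR summit. The median over all such genes was 242 bp. Of the 18 peaks, 17 were intergenic (outside protein-coding genes), 1 was in a 5' UTR and 0 were in coding exons. The promoter window lies mostly upstream of the 5' end, and these places were not counted over all IDR peaks.

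**Figure D4:**
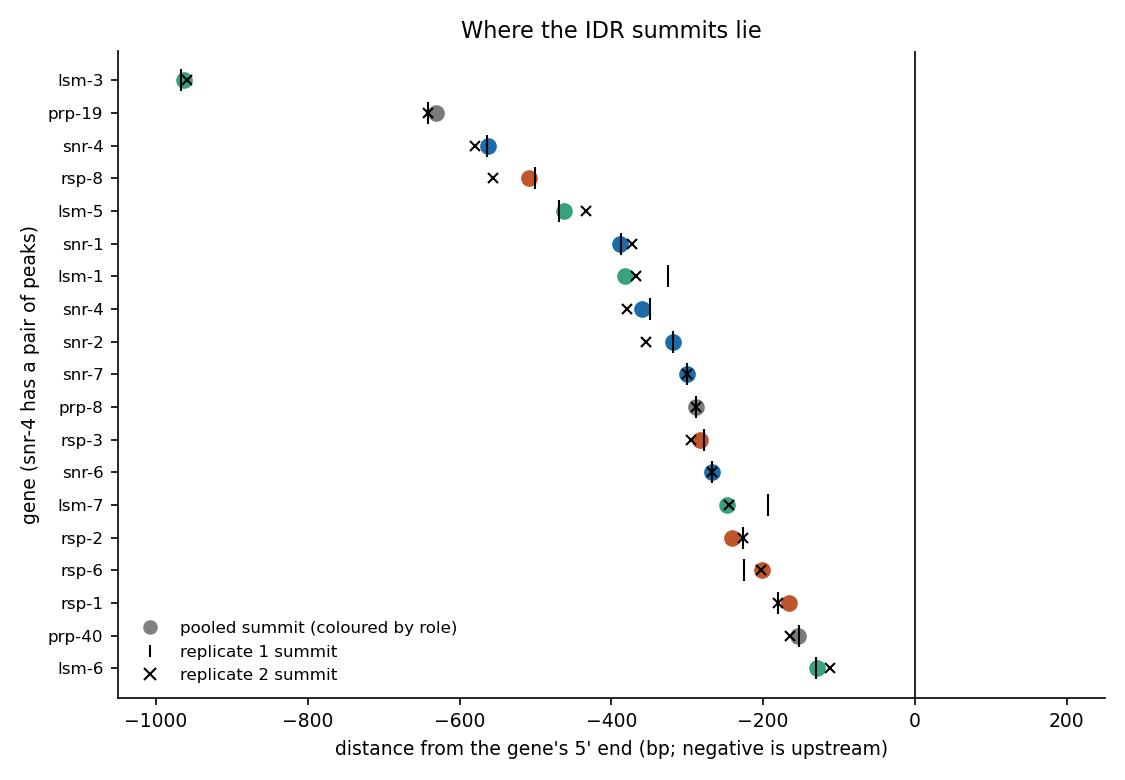
The horizontal axis gives the distance of each IDR summit from the 5' end of its gene in bp, with upstream to the left, and each line is a gene (snr-4 appears for both of its peaks). Circles are pooled summits coloured by role, bars replicate 1 and crosses replicate 2. All summits lie upstream, 15 of the 18 genes have their best summit between 100 and 500 bp, and replicate summits are at most 55 bp apart.

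Many of the summits fell in the promoter windows of several genes. Of the 18 peaks, 13 (72.2%) lay in the windows of more than 1 protein-coding gene, against 35.2% of the 1137 IDR peaks that lay in any window. These shares are not drawn alike. The 18 peaks were reached through genes, so a peak in several windows had more chances to enter, while the 35.2% counts each peak once. For 10 peaks the nearest 5' end was that of a set member and for 8 it was that of another gene. The strongest peaks nearest to a member were those of snr-4, prp-40, rsp-6 and snr-6. The nearest gene upstream was on the other strand for 28 of the 40 genes, of which 12 had an IDR summit, and on the same strand for 12, of which 6 had one. Over all protein-coding genes 7.65% had an IDR summit, and no split by the strand of the neighbour is given for them. A same-strand gene ended under 500 bp upstream of 8 genes, an arrangement seen in operons, and 4 of these (lsm-3, lsm-5, lsm-6 and rsp-6) had an IDR summit. The 5' ends of lsm-3 and rsp-4 lay inside the same-strand genes mdt-9 and ndx-6. The count of 8 required a same-strand gene whose end lay 0 to under 500 bp upstream. That held for lsm-3 and not for rsp-4. For the peaks in shared windows, which of the genes the binding serves was not tested.

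The peaks of these genes were spread over the autosomes. There were 6 such genes on chromosome III with an IDR summit of 10, 4 of 7 on IV, 3 of 11 on II, 3 of 6 on I and 2 of 6 on V. Over all protein-coding genes the share was 7.65%. Its split by chromosome is not given here, so whether these counts differ from it by chromosome was not tested. The X chromosome carries 0 of the 40 genes.

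The site of Fos-Jun dimers, AP-1, has the sequence TGACTCA, which on the other strand reads TGAGTCA. It was found within 50 bp of 0 of the 18 summits (upper limit of the interval 18.5%), and within 50 bp of 3.80% of all IDR summits. With a share that low, 18 peaks cannot show whether these promoters hold it less often. It was also absent from the whole promoter window of all 40 genes, whereas 11.7% of all protein-coding genes had it there. The cAMP-response site TGACGTCA (0.950% of all IDR summits), the GA repeat GAGAGAG (16.2%), the E-box CACGTG (3.80%) and the GATA site TGATAA (4.96%) were found at 0 of the 18 summits. The GC-box GGGCGG (4.80%) was at 1, that of prp-19, where the printed strand carries its reverse complement CCGCCC from base 45. In the window printed for rsp-6, TGATAA appears as its reverse complement from base 12, farther than 50 bp from the summit. A variant chosen after the sequences had been seen, TGACGCA, lay within 50 bp of 5 of the 18 summits (27.8%; all IDR summits 4.12%) and in the promoter windows of 11 of the 40 genes (27.5%; all genes 6.78%). Both strands were searched, and these letters are a description, not evidence of a site. GC content within 50 bp of the summit had a median of 46% (32.7% to 56.4%), against 45.5% for all IDR peaks.

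Other genes of the splicing machinery, named by other symbols, were counted for context. Of 98 symbols listed, 79 were found in the annotation, and 23 of these had an IDR summit (29.1%, interval 19.4 to 40.4; all genes 7.65%), with 54 having any pooled entry (68.4%; all genes 32.8%). The highest were smu-1 (signal 115), spk-1, which encodes an SR protein kinase (93.4), rsr-1 (92.5) and the hnRNP A1 family gene hrpa-1 (91.3). The pre-mRNA helicase genes mog-1 (51.1) and mog-4 (50.5) were near the lower end. Replicate 1 gave 27.8% and replicate 2 gave 29.1%. The interval of the 40 genes, 29.3 to 61.5, overlaps theirs. With summits given only to the nearest gene, 17 of the 79 genes had an IDR summit (21.5%), close to the 22.5% of the 40 genes. Whether the lists differ was not tested.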

How the data were processed

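ChIP-seq of tagged FOS-1 in 2 biological replicates of L1 larvae gave the authors' ce11 peak lists, which were used here. The deposited text files name as inputs the alignments of 1 replicate (replicate lists) or of both (pooled list), each with the same control file, and for the IDR list the other 3 lists. The sources used here do not give the aligner, peak caller or IDR threshold. The deposited signal value ranked entries within a list; its scale differs between lists (median 9.60 in replicate 1, 8.00 in replicate 2, 17.1 in the pooled list), so lists were compared by rank and overlap (at least 1 bp). The deposited −log10 q value is 3.63 for all IDR peaks and ranked nothing. Depth is unknown.

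Genes came from Ensembl release 115 on WBcel235, the assembly of ce11; 0 entries ran past a chromosome end. The ce10 lists were not used. The sequence of 1 peak is not reported here. A replicate entry was matched to a peak by overlap and nearest summit. Intervals are exact at 95%. The window code was tested on planted entries. Python 3.11.15, numpy 2.4.6, scipy 1.17.1 and matplotlib 3.10.9 were used.

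The genes, lists and motifs were chosen with earlier results of these data known. Named were every gene with an IDR summit, the 4 highest of the others, those without any entry, and neighbours; rsp-5, snr-5 and further genes below the IDR limit, and the genes of the spliceosome list, were picked for naming with their values known. Alternatives tried were the window, the assignment of summits, the threshold, each replicate, operon-like genes and the motif search.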

Additional observations from a re-analysis of the deposited data

How the results depend on the processing

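Of 62 alternative values, 49 stayed within the interval or spread of the reported one and 13 were counted as moved. The 13 include the median pooled rank in the upper part of the IDR list, which was counted so without comparison with a spread. That part keeps only the better ranks, so it can only lower this median. Changes of direction were not scored. Among the 49 were motif shares that stayed at 0%. The share with an IDR summit was above that of all genes under each setting run. It was 22.5% (all genes 6.95%) when a summit went only to the nearest gene, which kept 9 of the 18 genes, and 27.5% (4.14%) in the upper part of the IDR list by signal, which kept 11. The narrower window gave 37.5% (6.11%), the wider one 47.5% (9.83%), genes outside operon-like arrangements 43.8% (8.17%), and the replicates alone 40% to 47.5%. Without replicate 1, lsm-5 and snr-7 were not counted; without replicate 2, lsm-1 was not, while sftb-1 and sftb-2 were. Nearest genes gave 62.5% for pooled entries (all genes 41.7%). For other spliceosome genes, the upper part of the IDR list gave 12.7% (all genes 4.14%). Those outside operon-like arrangements gave 40.0% (20 of 50), close to the 43.8% of the set under that setting.

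The median distance was 283 bp in the narrower window and the upper part, 300 bp in the wider window, 268 bp for nearest genes and 288 to 292 bp in the replicates, where it had an SD of 2.47 bp. The median pooled rank was 644, and 429 in the upper part. Within 25 bp, GGGCGG was at 0% of peaks. With 1 mismatch allowed, TGACTCA was at 44.4% of the 18 peaks and 23.4% of all IDR peaks. That setting and the search of whole windows were chosen after seeing the data. Depth is unknown, so which weaker sites went unlisted cannot be judged. No paired analysis was possible because all samples share 1 group.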

Other observations

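A sequence that differs from the AP-1 site by 1 base recurred at these peaks. TGACGCA, which differs from TGACTCA by T5G (counted from 1 at the 5' end of TGACTCA), lay within 50 bp of 5 of the 18 summits (27.8%), those of lsm-5, lsm-6, lsm-7, snr-6 and the peak shared by rsp-1 and rsp-2. It was within 50 bp of 4.12% of all IDR summits and of 0.462% of the 10181 pooled entries of lowest signal. Within 75 bp it was at 6 (33.3%), prp-40 being the sixth, against 5.22% and 0.766%. In whole promoter windows it occurred at 7 of the 18 genes with an IDR summit (38.9%), at 4 of the 22 without (18.2%), at 13.9% of all genes with an IDR summit and at 6.78% of all protein-coding genes. This motif was picked after the printed sequences had been seen, so the values describe these peaks and no test is given.

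The matches of prp-40 and rsp-1 are in capitals in their printed windows, as TGCGTCA, the same letters read on the other strand. The windows of lsm-7 (IV:10933180-10933330, plus strand) and lsm-5 (V:15569842-15569992, plus strand), again with the summit at base 76, were chosen after the sequences had been seen and are added to show it in both orientations. The match starts at base 112 in lsm-7 and at base 82 in lsm-5.

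lsm-7: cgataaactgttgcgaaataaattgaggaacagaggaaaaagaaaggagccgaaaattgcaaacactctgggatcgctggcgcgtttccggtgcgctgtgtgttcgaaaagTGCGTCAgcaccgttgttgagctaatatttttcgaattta
lsm-5: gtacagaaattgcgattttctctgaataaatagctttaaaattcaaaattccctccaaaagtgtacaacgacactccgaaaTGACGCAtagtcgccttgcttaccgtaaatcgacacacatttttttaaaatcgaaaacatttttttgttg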
